A study of Homo sapiens with 4 samples.

Results

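The genes described here are 57 genes of mitosis: the cyclins and CDK1 that start it, the mitotic kinases, the kinetochore and spindle checkpoint proteins, the kinesins and other spindle proteins, and the proteins that separate the daughter cells. They were chosen by name, as a list of mitotic genes, and each was represented by its brightest probe set among those annotated with exactly 1 gene symbol. All 57 were measured, out of 19775 genes on the array, and all 57 were among the 15082 genes left once those too dim to pass on any array were set aside.

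ZEB2, a repressor of transcription with zinc fingers, was knocked down in the human breast carcinoma line MDA-MB-231 by 2 methods, and the study profiled total RNA on Affymetrix U133 Plus 2 arrays. The shRNA control carried the lentiviral vector pLVTH, and the shRNA knockdown carried a short hairpin RNA against ZEB2. Both were stably transduced cells, and whether they were pools or clones is not given in the sources used here. The siRNA control received small interfering RNA against luciferase, a gene human cells lack, and the siRNA knockdown received a pool against ZEB2. These cells were transfected at 20 nM with Dharmafect, washed at 24 hours and lysed 48 hours after the wash. All cells grew on plastic in Leibovitz-15 medium with serum. Labelling started from 2 micrograms of RNA for the shRNA arrays and from 100 ng for the siRNA arrays. Each group had 1 array, so no difference between a pair of arrays has a replicate check.

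Entry into mitosis is driven by CDK1 bound to cyclin A or cyclin B. Kinetochores, built on centromeres, attach chromosomes to the spindle, and the spindle checkpoint holds back the anaphase-promoting complex until every chromosome is attached. Most of these genes are transcribed in a wave in late S, G2 and M phase under the MuvB complex with B-MYB and FOXM1, so their RNA levels in a growing culture follow the share of cells in those phases.

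Values are log2 expression as deposited, 1 unit is 2-fold, and a level says nothing of the amount of 1 gene against another. ZEB2 itself went from 6.12 to 3.52 with shRNA, 6.05-fold lower, and from 6.56 to 3.51 with siRNA, 8.28-fold lower. Of 8 line markers, KRT8, KRT18, KRT19, VIM, CD44, EGFR and CAV1 read from 10.6 to 14.1, while SPARC read 4.52, 4.45, 4.80 and 4.88, near the filter level. The progesterone receptor gene PGR never reached the filter level of 4.77, while ESR1, ERBB2 and GATA3, also listed as low in this line, lay between 6.08 and 9.48. Of 11 measured markers of blood, vessel, liver and stromal cells, PTPRC, CDH5 and ALB lay under the filter level on every array, and the median of the other 8 was 5.65, 5.55, 6.16 and 6.23 on the 4 arrays. In Affymetrix's control probe sets, the excess of the 3-prime over the 5-prime end of ACTB was -0.038 and -0.033 on the shRNA arrays and 0.50 and 0.52 on the siRNA arrays.

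The mitosis genes were well above the filter level, with mean levels between 6.31 and 12.4. Their median level was 10.38 and 10.41 on the shRNA control and knockdown arrays, against 9.57 and 9.59 on those of siRNA. The siRNA arrays were thus the low pair, and within each method the control and the knockdown lay close together. Over all genes kept the medians were 7.56, 7.54, 7.81 and 7.73, in the order shRNA control, shRNA knockdown, siRNA control and siRNA knockdown, which is the order of every list of 4 levels below.

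**Figure D1:**
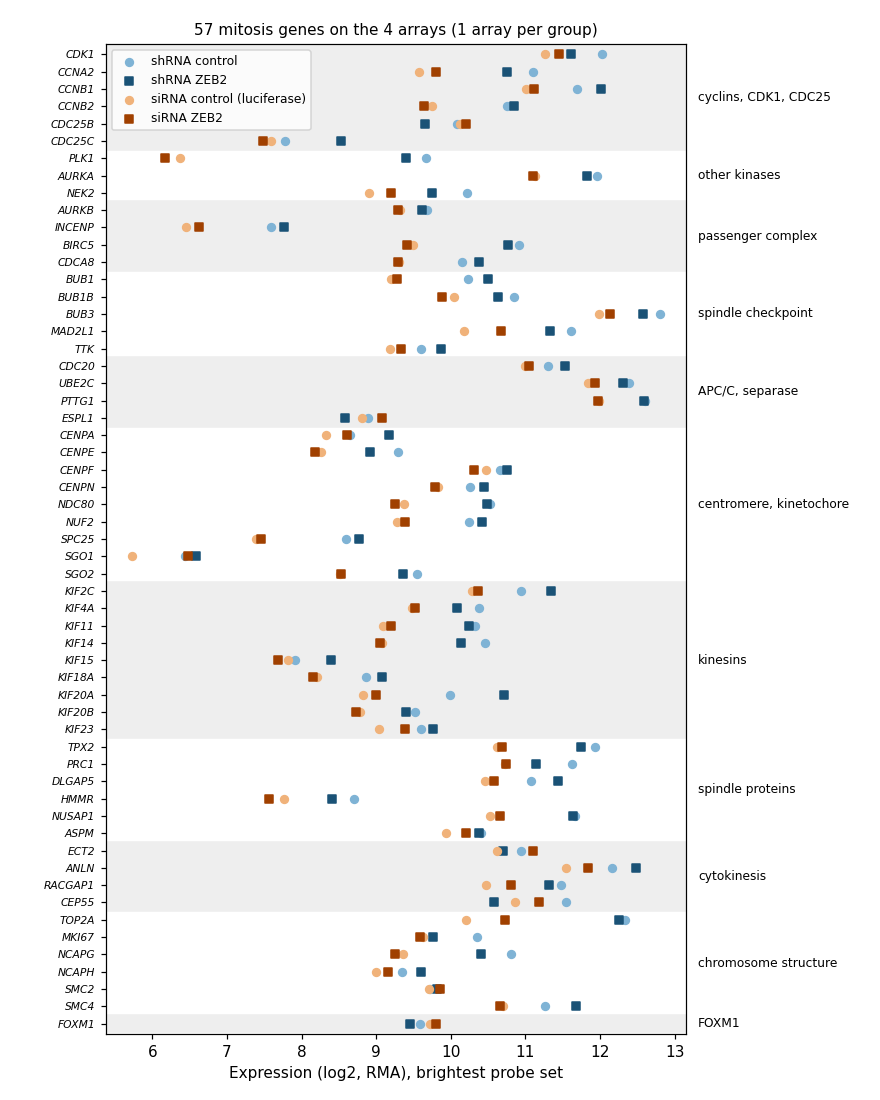
Log2 expression of the 57 mitosis genes on the 4 arrays, 1 point per array, grouped by role (horizontal axis, log2). For 50 genes both siRNA arrays (orange) lie to the left of both shRNA arrays (blue), and PLK1 shows the widest gap, with 9.66 and 9.39 against 6.37 and 6.17.

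The first comparison asked whether stable ZEB2 knockdown moved the mitosis genes. None of the 57 differed 2-fold from the shRNA control in either direction, where 2.08% of all genes kept were at least 2-fold lower and 2.39% at least 2-fold higher. The knockdown read lower than its control for 33 members, against 53.2% of all genes kept, and higher for 24, against 46.6%. The median difference was -0.074 over the members and -0.024 over all genes kept. By a smaller step, 0.322 or more on the log2 scale, 9 members were lower, against 19% of all genes, and 7 were higher, against 17.4%. At 1.5-fold these were 2 lower (CEP55 and MKI67), against 7.11%, and 2 higher (CDC25C and KIF20A), against 7.55%. The 9 were CDK1, CCNA2, CDC25B, NEK2, CENPE, PRC1, CEP55, MKI67 and NCAPG, and the 7 were CDC25C, CENPA, KIF2C, KIF15, KIF20A, DLGAP5 and SMC4. The members' differences had a standard deviation of 0.33, against 0.53 over the 9998 genes whose mean level lay in the members' range. That set was not matched on level and was dimmer, with a median of 8.63 on the shRNA control array against 10.38 for the members. This is a bulk measurement, so fewer cells in mitosis and less RNA per cell cannot be told apart in any difference given here.

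The second comparison put the same question to the transient knockdown. Again no member differed 2-fold, where 0.126% of all genes kept were at least 2-fold lower and 0.0464% at least 2-fold higher. Here 36 members were higher than in the siRNA control, against 46% of all genes kept, and 21 were lower, against 53.7%. The median was 0.082 over the members and -0.018 over all genes. By 0.322 or more 6 members were higher, against 6.24% of all genes, and 0 were lower, against 8.47%; at 1.5-fold SGO1 was higher, 1 member against 0.69%, and 0 were lower, against 1.51%. The 6 were SGO1, TOP2A, MAD2L1, ECT2, KIF23 and RACGAP1, which act at centromeres, on DNA topology, in the checkpoint and in cytokinesis. Under the other scalings the count of lower members was 22 with median centring, 17 with cyclic loess and 16 with quantile normalization, so the direction of members near 0 depends on the scaling.

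**Figure D2:**
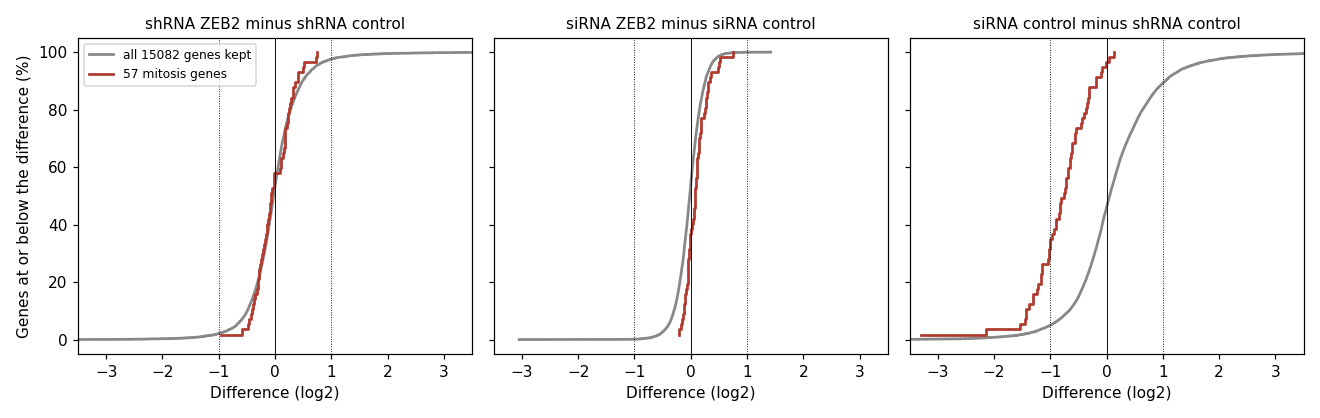
Cumulative share of genes (vertical axis, percent) at or below each log2 difference (horizontal axis; the widest values of all genes fall outside it) for the 57 mitosis genes and the 15082 genes kept. The curves nearly overlie each other in the shRNA pair, the members lie slightly to the right in the siRNA pair (medians 0.082 and -0.018), and they lie far to the left between the controls (medians -0.763 and 0.056).

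The members' signs in the 2 pairs were mixed. Of the 57, 16 were higher in both pairs and 13 lower in both, while 20 were lower with shRNA and higher with siRNA and 8 the reverse. These combinations, and the rule in the next sentence, were not counted over all genes kept. Whether the members differ from other genes in them is therefore not known. By the brightest probe sets no member differed by 0.322 or more the same way in both. By their other probe sets CCNB1 did, at 0.57 and 0.53, and so did HMMR in the lower direction, at -0.34 and -0.43. ANLN, the actin-binding anillin of the cleavage furrow, came nearest by its brightest: it read 12.16, 12.48, 11.54 and 11.84, differing by 0.32 with shRNA and by 0.30 with siRNA. Both knockdown arrays were thus above their own control by a similar step. CENPA, the centromeric histone H3 variant, read 8.65, 9.17, 8.33 and 8.60, with differences of 0.52 and 0.28.

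A limma fit over all 15082 genes, with the method as a block and knockdown as the effect, called 0 genes at an adjusted p of 0.05. At an unadjusted p of 0.05 it held 384 genes, 2.55% of all, and 0 members. ANLN ranked first among the members, with a mean knockdown effect of 0.31 ± 0.13 (SE over 4 arrays), followed by CENPA with 0.40 ± 0.18. Both had a limma adjusted p of 0.971, as had ZEB2 itself, at -2.82 ± 0.18. The fit has 1 residual degree of freedom and takes the 2 methods as replicates of a knockdown, and it did not call the targeted gene.

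**Figure D3:**
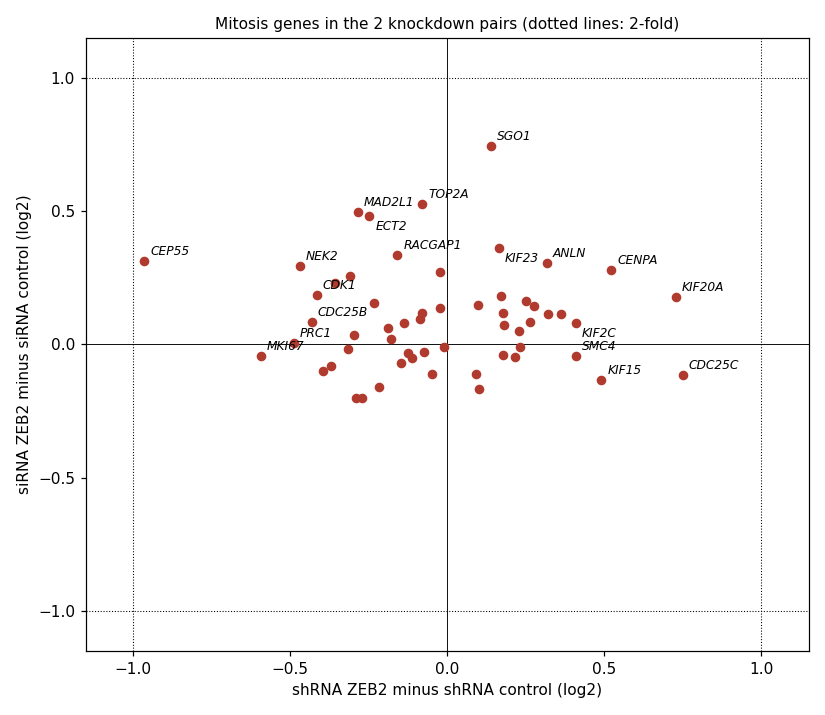
Difference between knockdown and control for each of the 57 mitosis genes in the shRNA pair (horizontal axis, log2) and the siRNA pair (vertical axis, log2), with 2-fold marked by dotted lines. All points lie inside the 2-fold lines. CEP55 lies far to the left (-0.96, 0.31), KIF20A and CDC25C to the right, and SGO1 at the top (0.14, 0.74).

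The third comparison set the controls against each other. Both keep ZEB2, and they differ in transduction against transfection, in culture and in the RNA input for labelling, which cannot be told apart here. The siRNA control was lower than the shRNA control for 55 of the 57 members, against 45.8% of all genes kept. The 2 exceptions, against 54% of all genes, were FOXM1 and CDC25B, higher by 0.13 and 0.041; with cyclic loess CDC25B turned to the lower side, and with median centring SMC2, at -0.0064, turned to the higher side. The median member was 1.70-fold lower, a difference of -0.76, where the median of all genes was 0.056. At 2-fold, 19 members were lower, 33.3% of them against 4.99% of all genes, and 0 were higher against 10.8%. Among the 9998 genes whose mean level lay in the members' range, 5.96% were 2-fold lower. That set was not matched on level, and its median was 8.63 on the shRNA control array against 10.38 for the members. At 1.5-fold 39 members were lower, against 12.1% of all genes, and by 0.322 or more 48 were, against 23.2%; 0 were higher by either rule, against 21.9% and 33.1%.

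The 19 spread over most roles: CCNA2, CCNB2, PLK1, NEK2, INCENP, BIRC5, BUB1, MAD2L1, CENPE, NDC80, SPC25, SGO2, KIF11, KIF14, KIF20A, TPX2, NUSAP1, TOP2A and NCAPG. Median differences by role were -1.30 for the other mitotic kinases, -0.99 for the chromosomal passenger complex, -0.96 for centromere and kinetochore proteins, -0.92 for spindle proteins and -0.82 for the checkpoint. They were -0.74 for kinesins, -0.73 for the cyclins and CDK1 group, -0.65 for cytokinesis, -0.64 for chromosome structure and -0.43 for the anaphase-promoting complex and separase group. Every role of more than 1 gene was therefore on the low side in the siRNA control.

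The same gap stood between the knockdown arrays, which share no array with the controls. The siRNA knockdown was lower than the shRNA knockdown for 51 of 57 members, against 42.3% of all genes kept, with a median of -0.72 against 0.086. At 2-fold 17 members were lower, against 3.91% of all genes, and 0 were higher, against 7.83%. At 1.5-fold 34 were lower, against 10.7%, and 1 (CEP55) higher, against 18.8%. By 0.322 or more 46 were lower, against 19.9%, and 5 higher (CDC25B, ESPL1, ECT2, CEP55 and FOXM1), against 31.8%; any higher value was seen in 6, against 57.5%. In both gaps 13 members were at least 2-fold lower, against 2.3% of all genes kept. For 50 members both siRNA arrays lay below both shRNA arrays, against 27.5% of all genes, 2 (CDC25B and FOXM1) lay above them, and ESPL1, SGO1, ECT2, CEP55 and SMC2 overlapped.

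In the same limma fit the coefficient of siRNA against shRNA was lower at an adjusted p of 0.05 for 14 members, against 2.22% of all genes kept, and higher for 0; over both directions 6.9% of all genes kept were called. PLK1 was lower by the widest margin, -3.26 ± 0.16 (SE, 4 arrays; limma, Benjamini-Hochberg adjusted p = 0.0258). TOP2A followed with -1.83 ± 0.21 (limma adjusted p = 0.0420). The other 12 were BIRC5, TPX2, SPC25, NDC80, NCAPG, INCENP, NUSAP1, KIF14, BUB1, CCNB2, KIF20A and KIF11, with limma adjusted p-values up to 0.0488. This coefficient was examined after the gap had been seen, the arrays of 1 method are not repeated cultures of 1 group, and the count ran from 1 with no filter to 36 with the mean of all probe sets.

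**Figure D4:**
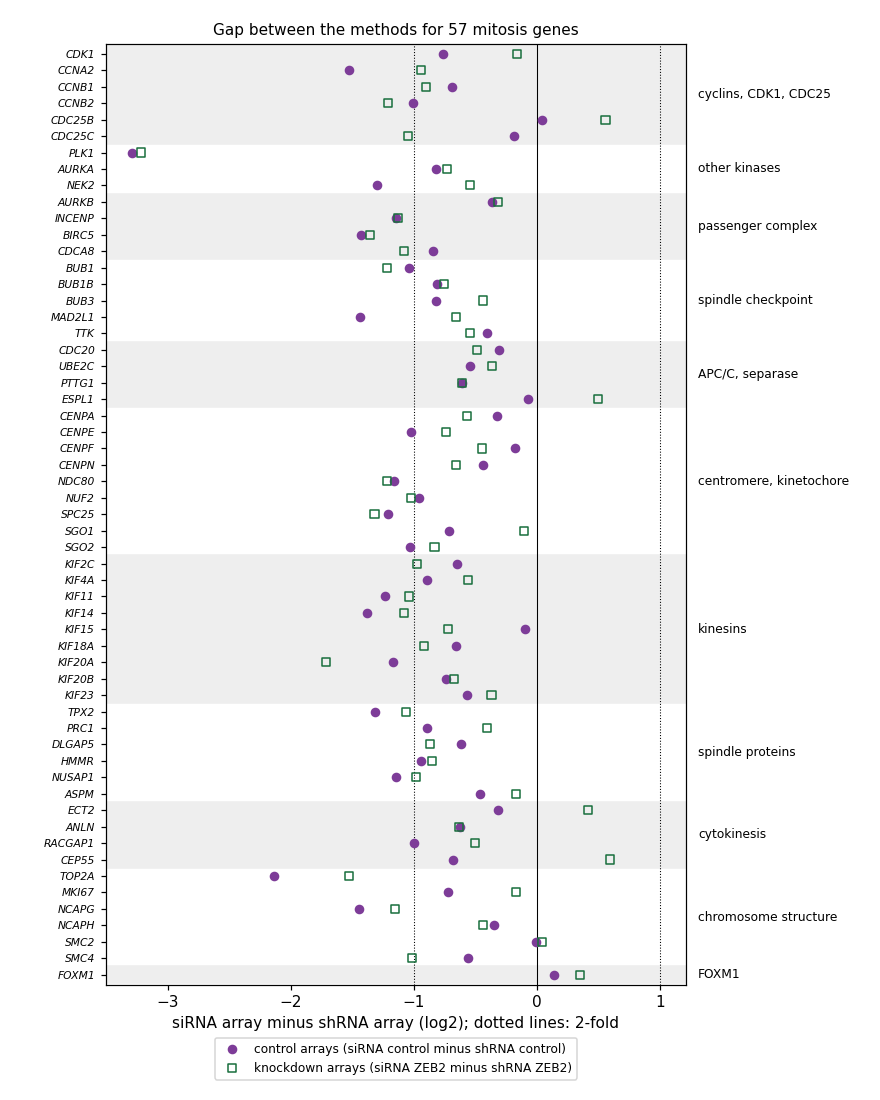
Gap between siRNA and shRNA arrays for each mitosis gene (horizontal axis, log2), for the controls (filled circles) and for the knockdowns (open squares), with 2-fold marked by dotted lines. Circles of 55 genes and squares of 51 genes lie left of 0. PLK1 stands alone near -3.3, and CEP55, ECT2 and ESPL1 have their circle left of 0 and their square right of it.

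Among the genes that start mitosis, CDK1, the kinase of mitotic entry, read 12.02, 11.61, 11.26 and 11.44. It was low in the shRNA knockdown against its control (-0.42) and slightly high in the siRNA knockdown (0.18). CCNA2, the cyclin A of S and G2 phase, read 11.10, 10.75, 9.57 and 9.80, so both siRNA arrays were below both shRNA arrays, with differences of -1.53 between the controls and -0.94 between the knockdowns. CCNB1, the main cyclin B, read 11.69, 12.01, 11.00 and 11.11, with differences of 0.321 and 0.11 in the pairs. Without probe sets ending in _x_at or _s_at it differed by 0.57 and 0.53 in the pairs and by -0.26 between the controls, where the brightest gave -0.69. CCNB2 read 10.75, 10.85, 9.75 and 9.63, with both siRNA arrays low as for CCNA2. Of the phosphatases that activate CDK1, CDC25B read 10.08, 9.65, 10.12 and 10.21, lowest in the shRNA knockdown, while CDC25C read 7.77, 8.52, 7.59 and 7.48, highest there. Their shRNA differences were thus opposite, -0.43 and 0.75, the latter the highest of the members in that pair. Without probe sets ending in _x_at or _s_at CDC25C differed by 0.20 with shRNA and by 0.18 with siRNA, where its brightest gave -0.11.

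PLK1, the polo-like kinase of centrosome maturation and bipolar spindle assembly, read 9.66, 9.39, 6.37 and 6.17. Its pair differences were -0.27 and -0.20, while the siRNA control lay 9.78-fold below the shRNA control. It is measured by 1 probe set. NEK2, a kinase that splits the centrosomes, read 10.21, 9.74, 8.91 and 9.20, lower in the shRNA knockdown (-0.47) and higher in the siRNA knockdown (0.29) than in their controls. AURKA, the kinase of the spindle poles, differed by -0.12 and -0.032 in the pairs and by -0.82 between the controls.

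The chromosomal passenger complex, which corrects faulty attachments, had no member 2-fold apart in a pair by its brightest probe set. Its kinase AURKB read 9.68, 9.61, 9.32 and 9.29, with pair differences of -0.074 and -0.028. The mean of its probe sets put AURKB at -0.62 with shRNA and at -1.08 between the controls. Its other probe set was dim, with 6.90, 5.73, 5.11 and 5.09, the siRNA arrays being near the filter level of 4.77. That probe set differed by -1.17 with shRNA and by -1.79 between the controls. BIRC5, the survivin subunit of the complex, read 10.92, 10.77, 9.49 and 9.42, and the scaffold INCENP read 7.59, 7.76, 6.45 and 6.63. Both were more than 2-fold lower on the siRNA arrays, with differences of -1.43 and -1.14 between the controls, where the brightest probe set of AURKB differed by -0.37. CDCA8, the borealin subunit, differed by 0.23 and -0.0098 in the pairs and by -0.84 between the controls.

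Of the checkpoint genes, BUB1, a kinase recruited to unattached kinetochores, read 10.24, 10.50, 9.19 and 9.28. BUB1B, which encodes BUBR1 of the mitotic checkpoint complex, read 10.85, 10.63, 10.04 and 9.88, a little lower in both knockdowns (-0.22 and -0.16). MAD2L1, which binds CDC20 in that complex, read 11.61, 11.32, 10.17 and 10.67, and its pair differences were opposite, -0.28 and 0.50. The siRNA value of MAD2L1 came from the brightest probe set and was -0.016 when probe sets with names ending in _x_at or _s_at were left out. BUB3 and the kinase TTK differed by 0.15 and 0.14 in the siRNA pair and by -0.82 and -0.41 between the controls. In the shRNA pair BUB3 differed by -0.23 and TTK by 0.28.

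The genes of anaphase had the smallest median gap between the controls among the roles of more than 1 gene. CDC20, the activator of the anaphase-promoting complex, differed by -0.31, UBE2C, its ubiquitin-conjugating enzyme, by -0.55, and PTTG1, the securin that inhibits separase, by -0.61. Their pair differences lay between -0.088 (UBE2C, shRNA) and 0.23 (CDC20, shRNA). ESPL1, separase itself, which cleaves cohesin, read 8.89, 8.58, 8.82 and 9.07, with the knockdown below its control by shRNA (-0.31) and above it by siRNA (0.26). The methods overlapped for ESPL1.

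At the centromere, SGO1, the shugoshin that protects cohesin, read 6.44, 6.58, 5.73 and 6.47. Its siRNA difference of 0.74 was the highest of the members in that pair, and its probe set was the dimmest of the members'. By that probe set the siRNA control was the low array of SGO1, and the other 3 lay within 0.14 of each other. The other SGO1 probe set, dimmer still, read 5.53, 5.97, 4.99 and 5.18. It differed by 0.44 with shRNA and 0.19 with siRNA, and both its siRNA arrays lay below both shRNA arrays. SGO2 read 9.54, 9.36, 8.51 and 8.53. CENPE, the kinetochore motor, read 9.29, 8.92, 8.26 and 8.18, lower in the shRNA knockdown (-0.37). CENPF read 10.66, 10.76, 10.47 and 10.31, with small opposite differences of 0.10 and -0.17 by its brightest probe set. Another CENPF probe set gave 0.22 and 0.18, and the third, left when those ending in _x_at or _s_at are dropped, gave -0.50 and 0.64 with both siRNA arrays under the filter level.

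The members include 3 subunits of the NDC80 complex, which grips the spindle microtubules. NDC80 read 10.53, 10.48, 9.37 and 9.26 and SPC25 read 8.60, 8.78, 7.38 and 7.46, and NUF2 differed by -0.96 between the controls against -1.16 and -1.21. In the pairs these 3 subunits differed by -0.11 to 0.18. The remaining subunit, SPC24, which is in another list, differed by -0.39 with shRNA and by 0.066 with siRNA. CENPN, which binds CENPA nucleosomes, differed by 0.18 and -0.041 in the pairs and by -0.44 between the controls.

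Kinesins parted in the shRNA pair. KIF20A, a kinesin of the central spindle needed for cytokinesis, read 9.99, 10.71, 8.82 and 9.00, higher by 0.73 with shRNA, and its siRNA arrays were the lower ones, with differences of -1.17 between controls and -1.72 between knockdowns. KIF15, which supports spindle bipolarity, read 7.91, 8.40, 7.81 and 7.68, and KIF2C, a microtubule depolymerase at the centromere, read 10.94, 11.35, 10.29 and 10.37. These 3 were the kinesins higher by 0.322 or more in the shRNA knockdown. KIF14 read 10.45, 10.14, 9.07 and 9.06, with -0.31 in the shRNA pair and -1.38 between the controls. Its other probe set read 8.79, 8.81, 8.44 and 8.34, with 0.023 in the shRNA pair and -0.35 between the controls. KIF11, the motor that pushes spindle poles apart, read 10.32, 10.24, 9.09 and 9.20, with -0.079 in the shRNA pair. KIF23, of the centralspindlin complex, read 9.60, 9.76, 9.03 and 9.39 and was the kinesin highest in the siRNA pair, at 0.36, or 0.11 without probe sets ending in _x_at or _s_at. The chromokinesin KIF4A differed by -0.30 in the shRNA pair, KIF18A by 0.22 and KIF20B by -0.11, and their siRNA differences were 0.036, -0.046 and -0.050. Between the controls these last 3 differed by -0.89, -0.66 and -0.74.

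Of the other spindle proteins, TPX2, which activates Aurora A, read 11.93, 11.74, 10.62 and 10.68, and NUSAP1, which bundles microtubules, read 11.66, 11.64, 10.52 and 10.66. Both were more than 2-fold lower in the siRNA control and near level in the pairs. PRC1, which crosslinks the central spindle, read 11.63, 11.14, 10.73 and 10.74, differing by -0.49 with shRNA and 0.0051 with siRNA. HMMR, the hyaluronan receptor that also binds spindle microtubules, read 8.70, 8.41, 7.76 and 7.56 and was low in both knockdowns, with differences of -0.29 and -0.20. The other HMMR probe set gave -0.34 and -0.43. DLGAP5 and ASPM differed by 0.36 and -0.022 with shRNA and by 0.11 and 0.27 with siRNA. Between the controls DLGAP5 differed by -0.62 and ASPM by -0.46.

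The 4 genes of the cytokinesis group were all higher in the siRNA knockdown, against 46% of all genes kept, with a median of 0.32. PRC1, KIF20A and KIF23, central spindle genes placed in other groups here, differed by 0.0051, 0.18 and 0.36 in that pair. CEP55, the midbody protein that recruits the abscission machinery, read 11.55, 10.58, 10.86 and 11.18. It was 1.95-fold lower in the shRNA knockdown, the lowest of the members in that pair, and 0.31 higher in the siRNA knockdown. ECT2, which activates RhoA at the furrow, read 10.94, 10.69, 10.62 and 11.10, and RACGAP1, its partner at the central spindle, read 11.48, 11.32, 10.48 and 10.81. ECT2 thus differed by -0.25 and 0.48, and RACGAP1 by -0.16 and 0.33. A further ECT2 probe set gave 0.41 with siRNA, and the third lay under the filter level on both siRNA arrays. CEP55, NEK2, MAD2L1 and ESPL1 ranked highest, by the smaller of their 2 differences, among members that differed in sign between the pairs, and the difference between the pairs was not tested.

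Among genes of chromosome structure, TOP2A, the topoisomerase that untangles sister chromatids, read 12.34, 12.26, 10.20 and 10.73. It was level in the shRNA pair (-0.081), 0.53 higher in the siRNA knockdown, and 4.39-fold lower in the control of siRNA than in that of shRNA. Another TOP2A probe set read 11.45, 11.42, 10.87 and 11.19, a gap of -0.58 between the controls where the brightest gave -2.13. MKI67, the proliferation marker Ki-67, read 10.35, 9.76, 9.63 and 9.59, with differences of -0.59 for shRNA and -0.043 for siRNA. The shRNA control was the high array for MKI67. Of the condensin subunits, NCAPG read 10.80, 10.41, 9.36 and 9.25, SMC4 read 11.27, 11.68, 10.71 and 10.66 and SMC2 read 9.72, 9.82, 9.71 and 9.86. They share a complex but not a pattern: NCAPG differed by -1.45 between the controls, SMC4 by -0.56 and SMC2 by -0.0064. NCAPH differed by 0.25 and 0.16 in the pairs and by -0.35 between the controls. FOXM1, the factor that activates many of these genes, read 9.59, 9.45, 9.72 and 9.80, and both siRNA arrays were above both shRNA arrays.

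The gap between the methods was not the same for every probe set of a gene. The 57 members have 113 probe sets, and 26 members have 1. Among 51 further probe sets above the filter level, 50 were lower in the siRNA control and 1 was higher, with a median of -1.255. Over all genes kept the 14124 further probe sets had a median of -0.13, where the brightest had 0.076. The share of those 14124 that was lower was not counted. For the 30 members with several above the filter, the brightest had a median of -0.74, and further minus brightest within a gene had a median of -0.44. Below the brightest lay 78.4% of the further probe sets of members and 63.1% of those of all genes, whose median step was -0.22. ECT2 ranged furthest. Its brightest probe set differed by -0.32 and another by -4.34, with levels of 7.56, 6.91, 3.22 and 3.20, so 2 arrays lay under the filter level. A further BUB1 probe set read 9.78, 10.25, 6.14 and 5.80, a gap of -3.65 where the brightest gave -1.04. In the pairs the probe sets of 1 gene spread less, with a median range of 0.27 for shRNA and 0.34 for siRNA against 1.01 between the controls.

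Affymetrix's end-to-end control probe sets moved with the same gap. Beside the ACTB values given above, the excess of the 3-prime over the 5-prime control probe set of GAPDH was -0.074 and -0.071 on the shRNA arrays and 0.11 and 0.19 on the siRNA arrays. CD14, from the list of other cell types, moved the other way, with 5.21, 4.98, 7.30 and 6.94. The part of labelling input, of 3-prime bias and of other cells in the gap of the mitosis genes was not tested.

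**Figure D5:**
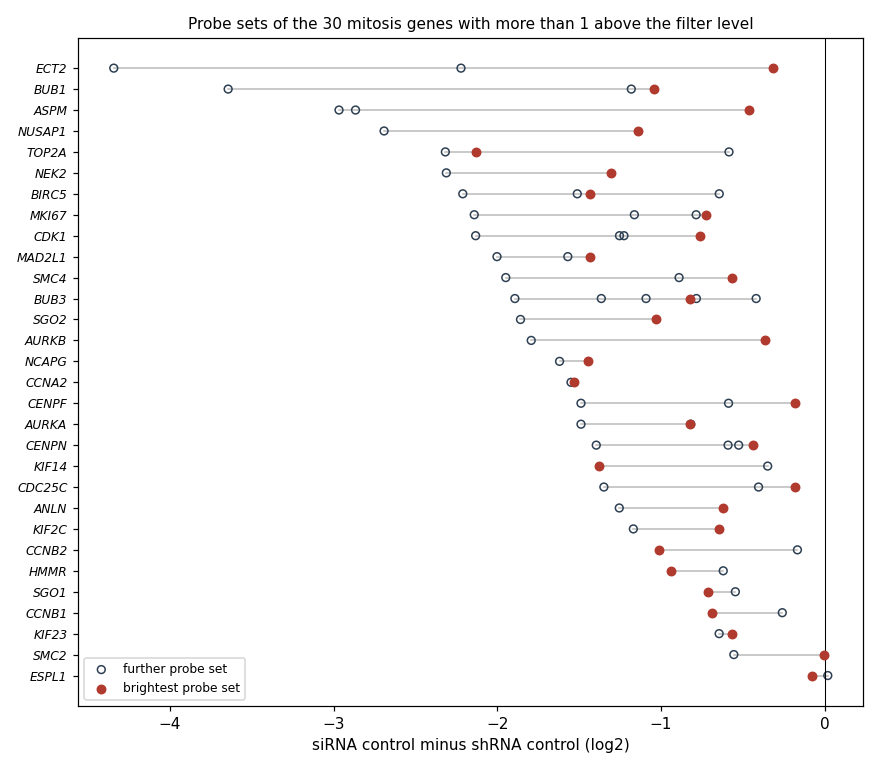
Difference between the siRNA and shRNA controls (horizontal axis, log2) for each probe set of the 30 mitosis genes with more than 1 above the filter level, brightest filled and further ones open, 1 row per gene. Nearly all points lie left of 0, and the spread within ECT2, BUB1, ASPM and NUSAP1 is wider than the gap of their brightest probe set.

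Promoters of the members are shown because so many moved together between the methods and because genes of this wave share known elements. The CHR element, whose core letters are TTTGAA, is bound by the MuvB complex, CCAAT by NF-Y, and CACCTG is an E-box of the kind ZEB proteins bind. Promoter sequence came from RefSeq (GRCh38.p14), from 250 bases before to 50 after a start, and 49 of the 57 members had at least 1, with 62 promoters in all. AURKA, BIRC5, BUB3, FOXM1, RACGAP1, TPX2, TTK and UBE2C were not matched. Printed below, 5′ to 3′ in the gene's direction, are the 200 bases before the start of the 4 members with 1 promoter that lay lowest between the controls and the 2 that lay nearest 0. Capitals mark TTTGAA and CCAAT on either strand (TTCAAA and ATTGG on the other).
PLK1: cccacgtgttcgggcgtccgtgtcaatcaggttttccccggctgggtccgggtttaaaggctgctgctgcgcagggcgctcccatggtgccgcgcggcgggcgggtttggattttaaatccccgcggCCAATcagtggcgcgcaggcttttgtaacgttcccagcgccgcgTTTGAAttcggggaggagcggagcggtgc
TOP2A: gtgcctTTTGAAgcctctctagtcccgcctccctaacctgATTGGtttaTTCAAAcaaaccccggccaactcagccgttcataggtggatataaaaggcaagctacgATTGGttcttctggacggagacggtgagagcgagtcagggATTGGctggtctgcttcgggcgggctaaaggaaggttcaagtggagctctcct
CCNA2: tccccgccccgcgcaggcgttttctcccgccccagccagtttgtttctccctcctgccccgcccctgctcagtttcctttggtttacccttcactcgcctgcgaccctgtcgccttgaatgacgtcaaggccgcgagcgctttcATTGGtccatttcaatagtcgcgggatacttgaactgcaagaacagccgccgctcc
NCAPG: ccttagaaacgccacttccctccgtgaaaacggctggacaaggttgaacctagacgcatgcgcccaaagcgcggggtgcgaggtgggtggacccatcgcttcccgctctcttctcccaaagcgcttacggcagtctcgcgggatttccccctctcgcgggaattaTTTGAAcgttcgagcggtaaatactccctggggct
ESPL1: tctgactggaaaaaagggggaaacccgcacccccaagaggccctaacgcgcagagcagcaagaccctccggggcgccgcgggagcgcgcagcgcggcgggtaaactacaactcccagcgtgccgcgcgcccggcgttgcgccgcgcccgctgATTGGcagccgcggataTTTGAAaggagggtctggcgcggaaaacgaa
KIF15: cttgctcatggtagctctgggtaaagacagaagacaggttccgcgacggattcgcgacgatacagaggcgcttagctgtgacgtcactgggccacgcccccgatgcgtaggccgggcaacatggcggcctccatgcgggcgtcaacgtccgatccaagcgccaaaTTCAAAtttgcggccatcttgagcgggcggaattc

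These windows are chr16:23678689-23678888 on the plus strand for PLK1, chr17:40417897-40418096 on the minus strand for TOP2A and chr4:121823884-121824083 on the minus strand for CCNA2. For NCAPG, ESPL1 and KIF15, all on the plus strand, they are chr4:17810779-17810978, chr12:53268099-53268298 and chr3:44761594-44761793. Counting bases back from the start, TTTGAA began at -29 in PLK1, at -35 in NCAPG, at -31 in ESPL1 and, on the other strand, at -35 in KIF15. TOP2A held it further out, at -194 and -151, and CCNA2 held CCAAT at -56 without TTTGAA in these letters. PLK1, with the widest gap, and ESPL1 and KIF15, with almost none between the controls, all carried TTTGAA within 35 bases of the start.

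Over all members TTTGAA was found on either strand in 39 of 62 promoters, 62.9%, against 15.2% of the 35116 promoters in the table. CCAAT was found in 45, 72.6%, against 34.6%. CACCTG was found in 14, 22.6%, against 20.6%. The median difference between the controls was -0.75 for the 36 members with TTTGAA and -0.71 for the 13 without. In the shRNA pair those medians were -0.023 and -0.011, and in the siRNA pair 0.044 and 0.085. For the 11 members with CACCTG the medians were 0.14 in the shRNA pair, 0.12 in the siRNA pair and -0.62 between the controls, against -0.036, 0.027 and -0.89 for the 38 without. A match of letters is a description and not a bound site.

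Other genes of mitosis, named in 5 further lists, were also low between the controls. Of 120 genes in those lists, 114 were measured and all 114 were kept. Their median was -0.098 in the shRNA pair, 0.035 in the siRNA pair and -0.55 between the controls, and 0 of them differed 2-fold in either pair. Of the 5 lists, that of other checkpoint and anaphase genes had a siRNA median of -0.038, opposite to the members'. Between the controls 27 of the 114 were at least 2-fold lower, against 4.99% of all genes kept. At least 2-fold higher were 2, BOD1 and NEK9, against 10.8%. The medians between the controls were -0.68 for other kinetochore genes, -0.62 for other kinesin and spindle genes, -0.51 for cohesin and condensin, -0.33 for other checkpoint and anaphase genes and -0.28 for other mitotic kinases. The 27 held 10 kinetochore genes (CENPT, CENPU, PMF1, ZWINT, ZW10, KNTC1, SPC24, SKA1, SKA3 and HJURP), 10 kinesin and spindle genes (KIFC1, CKAP2, CKAP2L, CKAP5, SPAG5, HAUS6, FAM83D, DEPDC1, ARHGAP11A and CDCA3), TRIP13, FBXO5 and ANAPC4, PLK4, and NCAPD2, NCAPD3 and SMC3. PLK4, the kinase of centriole duplication, read 10.17, 9.53, 8.06 and 8.02. FBXO5, the inhibitor of the anaphase-promoting complex also called EMI1, read 10.16, 9.47, 8.73 and 8.51. SMC3, a cohesin subunit, read 11.43, 11.48, 9.59 and 9.86. Each of these 3 was the lowest of its list between the controls, with its siRNA arrays below its shRNA arrays, as with PLK1 and TOP2A among the members.

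Genes of DNA replication lay as low between the controls as the mitosis genes, with a median of -0.77 over 42 kept. Of these 36 were lower, against 45.8% of all genes kept, and 16 at least 2-fold lower, against 4.99%. In the shRNA pair their median was -0.27, with 33 lower and 9 higher, where the members had -0.074 with 33 lower and 24 higher. Of all genes kept 53.2% were lower and 46.6% higher in that pair. In the siRNA pair the median of the replication genes was 0.084, with 30 higher, against 46% of all genes kept. The 16 were MCM2, MCM5, MCM6, MCM10, TYMS, POLA1, POLD3, POLE2, RFC3, RFC5, GINS2, CDC45, CHAF1B, ASF1B, UHRF1 and DUT. POLA1, the catalytic subunit of DNA polymerase alpha, read 9.68, 9.03, 8.35 and 8.05. Genes of MuvB and its partners had medians of -0.12, 0.037 and -0.44 over 16 genes in the shRNA pair, the siRNA pair and between the controls. The MuvB subunit LIN9 read 7.92, 6.60, 6.49 and 6.54, and the pocket protein gene RBL1 read 8.59, 7.51, 7.35 and 7.68, both more than 2-fold lower in the shRNA knockdown and level or higher in the siRNA knockdown. Of 15 measured G1 cyclins, partner kinases and inhibitors, the median was -0.12 in the shRNA pair, -0.010 in the siRNA pair and -0.16 between the controls. CCND2, a D cyclin of G1, was the gene of these lists that was 2-fold lower in both pairs, with 8.10, 6.36, 7.21 and 5.66. CDKN1C, the CDK inhibitor p57, read 6.56, 7.70, 8.14 and 8.06, so the shRNA control was its low array.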

How the data were processed

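Total RNA of 4 cultures, 1 array each, was measured on Affymetrix U133 Plus 2 arrays. The authors deposited log2 expression per probe set; the submitters' processing notes name RMA and affy, whose versions are not given in the sources used here. Sorted, the 4 arrays' values differed from their mean by at most 0.0805, so total RNA per cell is not visible. Of 54675 probe sets, 41097 had 1 gene symbol in the platform annotation, 1801 had several and 11777 had none. The brightest of the first kind, by mean over the arrays, stood for each of 19775 genes, and genes whose highest value fell short of the 40th percentile, 4.77, were removed. RMA compresses differences near the bottom of the scale.

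The main rule for a difference was 2-fold; smaller steps (1.5-fold, and 0.322 on the log2 scale) were alternatives. limma (version 3.58.1, R 4.3.3) was fitted on all 15082 genes kept, with an intensity trend and Benjamini-Hochberg adjustment at 0.05. Its step was tested on simulated arrays with set noise and the same knockdown effect in both methods. That run does not show how well the fit finds changes in these data. Python 3.11.15 and matplotlib 3.10.9 made the figures. Members' levels are given for those 2-fold apart in a pair or between the controls, the 6 at either end of each pair, the 4 highest and lowest between the controls, the 4 largest opposite differences and CDK1, CCNB1, PLK1, AURKB, FOXM1, TOP2A and MKI67. From the 11 other lists (217 genes, 9 without a named probe set, 3 in 2 lists), the genes 2-fold apart in a pair or between the controls were named. Exceptions named after their values were seen are ANLN and the single members given by differences alone. The members, lists and tests were chosen with earlier results of these data known. The comparison of the knockdown arrays, the method coefficient and the probe set comparison were added after the data were seen.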

Additional observations from a re-analysis of the deposited data

Results flagged for a closer look

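In 20 of the 57 mitosis genes the ZEB2 knockdown lay below its control with shRNA and above it with siRNA. Over all genes kept this combination was not counted, while 53.2% were lower with shRNA and 46% higher with siRNA. The 4 listed here ranked highest, by the smaller of their differences, among members that differed in sign between the pairs. CEP55, the abscission protein, differed by -0.96 with shRNA and 0.31 with siRNA. NEK2, the centrosome kinase, differed by -0.47 and 0.29, and by -0.18 and -0.032 on its other probe set. MAD2L1, of the checkpoint, differed by -0.28 and 0.50, and by -0.19 and -0.016 on the next brightest probe set. ESPL1, separase, differed by -0.31 and 0.26. Each value comes from 1 array against 1 array, and the difference between the methods was not tested.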

How the results depend on the processing

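Over the probe set, filter and scaling alternatives the members' median ran from -0.079 to -0.061 with shRNA and from 0.065 to 0.114 with siRNA. Between the controls it was -0.91 with the mean of all probe sets and -1.01 over the 45 members left without probe sets ending in _x_at or _s_at, where the gap of the knockdown arrays was -0.85. At 1.5-fold the counts were 2 lower and 2 higher (shRNA pair), 1 higher (siRNA pair), 39 lower (controls), and 34 lower and 1 higher (knockdown arrays). By 0.322 or more on the log2 scale they were 9 and 7, 6, 48, and 46 and 5. Single genes moved with the probe set: with the mean of all probe sets SGO1 and TOP2A differed by 0.47 and 0.16 in the siRNA pair (0.74 and 0.53 as reported) and SMC4 by 0.068 in the shRNA pair (0.41 as reported). Without probe sets ending in _x_at or _s_at CCNB1 differed by 0.57 and 0.53 in the pairs. Against the control of the other method the shRNA median turned to 0.84 (4 members lower, 20 at least 2-fold higher) and the siRNA median to -0.70 (51 lower, 16 at least 2-fold lower), which carries the gap between the methods. For these 2 differences nothing was counted over all genes kept, so whether the members differ from other genes in them is not known. The limma coefficient of the methods called 14 members as reported, 26 with cyclic loess, 26 with a filter at the 60th percentile, 30 with quantile normalization, 36 with probe sets averaged and 1 with no filter; the cause was not tested. TTTGAA or TTTAAA was found in 79.0% of member promoters. The share among all promoters was also higher for this wider pattern than for TTTGAA alone. No paired analysis was possible because the labels carry no replicate numbers, if paired by number; the limma fit itself blocks on the method, which sets each knockdown beside its own control. With 1 array per group no replicate could be left out. The limits are 1 array per group, a fit with 1 residual degree of freedom, and methods that differ in RNA input.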
